A study of Mus musculus with 14 samples.

Results

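Sp5 and Sp8 encode zinc-finger transcription factors of the Sp family. The 2 genes, of 21887 protein-coding genes in the RefSeq table of GRCm38.p6, were chosen by name, and the binding of 4 chromatin proteins around them was described from lists of ChIP-seq peaks. A region was a stretch covered by peaks of both replicates of a group, merged where they overlapped by at least 1 bp. It was given to Sp5 or Sp8 when an end of that gene was the nearest protein-coding gene end to its strongest summit, within 100 kb. Summed over 6 groups of immunoprecipitations, 30 of 132214 regions were at these genes, 11 at Sp5 and 19 at Sp8; regions of different proteins at one place are counted once for each protein.

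The proteins were profiled in gastruloids, which are aggregates of mouse embryonic stem cells that form a posterior body axis, and in the undifferentiated stem cells (mESCs). Gastruloids were started from 300 sorted cells, received 3 µM CHIR99021, a GSK3 inhibitor that activates Wnt signalling, from 48 h, and were collected at 120 h; mESCs were grown with serum and LIF. All libraries came from the line named E14_triple reporter, which the growth protocol describes as carrying Brachyury-GFP and SOX17-RFP reporters. Each protein was tagged at its own gene. The coactivator p300 carried V5 and miniTurboID and was immunoprecipitated with a V5 antibody in gastruloids and in mESCs (2 replicates each). RXRα, a nuclear receptor, carried HA and the FKBP12F36V degron and was immunoprecipitated with HA antibodies in gastruloids and in mESCs (2 replicates each). Sp5 and Zeb2, a zinc-finger repressor, carried the same tag as RXRα and were profiled in gastruloids only (2 replicates each). Each cell type had 1 input library, from the p300 line. The labels do not say how many clones each tagged line stands for, how many gastruloids were pooled, or whether replicates were separate cultures. Libraries of untagged cells with these antibodies were not analysed here.

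Sp5 and Sp8 are known as direct targets of Wnt signalling, switched on through β-catenin and the TCF/LEF factors, and as mediators of that signal in the primitive streak and tail bud of the mouse embryo. Both proteins bind GC-rich boxes and GT boxes through zinc fingers, and Sp5 has been described both as an activator and as a repressor of Wnt target genes. Sp8 is also known for roles in limb outgrowth and in the developing forebrain. p300 acetylates histones and is used as a mark of active enhancers and promoters, and Zeb2 binds E-boxes.

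Sp5 (gene ID 64406) lies on chromosome 2 at chr2:70474923-70477726, plus strand, and is 2804 bp long. The next protein-coding genes are Myo3b, 45.7 kb to its left, and Erich2, 30.9 kb to its right. Sp8 (gene ID 320145) lies at chr12:118846288-118852578, plus strand, and is 6291 bp long. It is 544.8 kb from Sp4 on its left, the widest gap of the 4, and 14.9 kb from Abcb5 on its right. RefSeq lists 1 transcription start for Sp5 and 3 for Sp8.

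The promoter windows of both genes are shown because gastruloid p300 and Sp5 regions lay over them. Each runs over 250 bases before and 50 after a RefSeq start on the plus strand of GRCm38.p6, written 5′ to 3′. The Sp5 window is chr2:70474673-70474972, and the Sp8 window, chr12:118846983-118847282, belongs to the start at 118847233, the only one of the 3 inside a region. Capitals mark matches to the letters of TCF/LEF sites (CTTTG followed by AA, AT, TA or TT) and to a GC box (GGGCGG), searched on both strands.
Sp5 promoter: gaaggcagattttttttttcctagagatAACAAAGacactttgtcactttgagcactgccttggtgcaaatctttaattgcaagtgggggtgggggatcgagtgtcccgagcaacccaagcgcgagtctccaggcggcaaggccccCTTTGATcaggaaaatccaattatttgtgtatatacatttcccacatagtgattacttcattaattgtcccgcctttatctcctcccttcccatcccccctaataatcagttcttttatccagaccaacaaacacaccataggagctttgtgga
Sp8 promoter: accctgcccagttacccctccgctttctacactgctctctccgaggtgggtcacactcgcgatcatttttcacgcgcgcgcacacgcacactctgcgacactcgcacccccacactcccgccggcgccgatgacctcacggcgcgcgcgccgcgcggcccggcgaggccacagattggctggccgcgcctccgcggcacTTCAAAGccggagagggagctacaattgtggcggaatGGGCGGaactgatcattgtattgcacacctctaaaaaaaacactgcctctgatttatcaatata

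The Sp5 window held 2 matches to the TCF/LEF letters, which began 222 and 104 bases before the start. Of the 32851 RefSeq promoter windows of this length, 16.9% held at least 1 such match and 1.94% held at least 2. The Sp8 window held 1 TCF/LEF match, 51 bases before the start, and 1 GC box, 14 bases before it; 35.7% of all windows held a GC box. The Sp5 window held no GC box, and neither window held a GT box (GGGTGTGG; 3.56% of all windows) or a Zeb2 E-box (CACCTG or CACCTA; 28.2%). The nuclear receptor half-site letters AGGTCA were met once in the Sp8 window, on the minus strand 120 bases before the start, and not in the Sp5 window; 16.3% of windows held them. The other 2 Sp8 windows held no match to any of these letters. GC content was 45% in the Sp5 window and 61% in the Sp8 window, against a median of 52.7% over all windows. These matches describe the letters only and are not shown to be bound.

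p300 covered more places around Sp5 in gastruloids than in mESCs. Gastruloids had 6 p300 regions given to Sp5 and mESCs had 1, and the mESC region lay at the same place as one of the 6. The other 5 gastruloid regions overlapped no peak of either mESC library and are called gastruloid-only; no region at Sp5 was mESC-only. Over all genes, 64% of the gastruloid p300 regions given to a gene were gastruloid-only, and among regions found in one cell type alone 71.1% were, so the count at Sp5 leans the way most genes do. At least 6 gastruloid p300 regions were given to 8.2% of genes, and at least 5 gastruloid-only regions to 5.85%. The gastruloid p300 lists were longer and gave 53025 regions, against 31014 in mESCs. With p300 lists of equal length, Sp5 had 5 gastruloid p300 regions, 4 of them gastruloid-only. Neither input library had a peak within 100 kb of Sp5 or Sp8.

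The strongest gastruloid-only region lay over the start of Sp5. Its enrichment, given here as the authors' fold of the summit over the local background, was 11.4 and 11.1 in the 2 gastruloid libraries (11.2 ± 0.269, mean ± SD, n = 2), and neither mESC library had a peak there. The fold and the p of each peak give back the number of fragments piled up at its summit, which was 242 and 182 in gastruloids, with counting errors (square root of the count) of 15.6 and 13.5. The region stood among the top 9.94% and 13.2% of its 2 lists by fold. It covered the whole promoter window shown above. A p300 region lay over a RefSeq start at 45.2% of the 17492 genes with a start in the promoter table in gastruloids and at 4.85% in mESCs, so a covered start was common in gastruloids.

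Upstream of Sp5, 4 more gastruloid-only p300 regions stood at 2.77, 17.8, 18.5 and 21.9 kb from the start. The region at 17.8 kb (chr2:70456871-70457326) had folds of 7.07 and 8.15 (49 and 41 fragments) in gastruloids. The region at 2.77 kb had 3.29 and 5.48 (61 and 80 fragments), the largest ratio between replicates of the 6. The regions at 18.5 and 21.9 kb had folds of 4.16 to 5.74. By fold these 3 weaker regions stood 75.8% to 94.8% of the way down the first gastruloid list and 51.0% to 61.5% down the second. The shared region, 10.1 kb downstream of the start and 7.30 kb past the end of the gene (chr2:70484723-70485319), was the highest by fold, with 14.4 and 18.3 in gastruloids and 13.4 and 12.97 in mESCs.

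**Figure D1:**
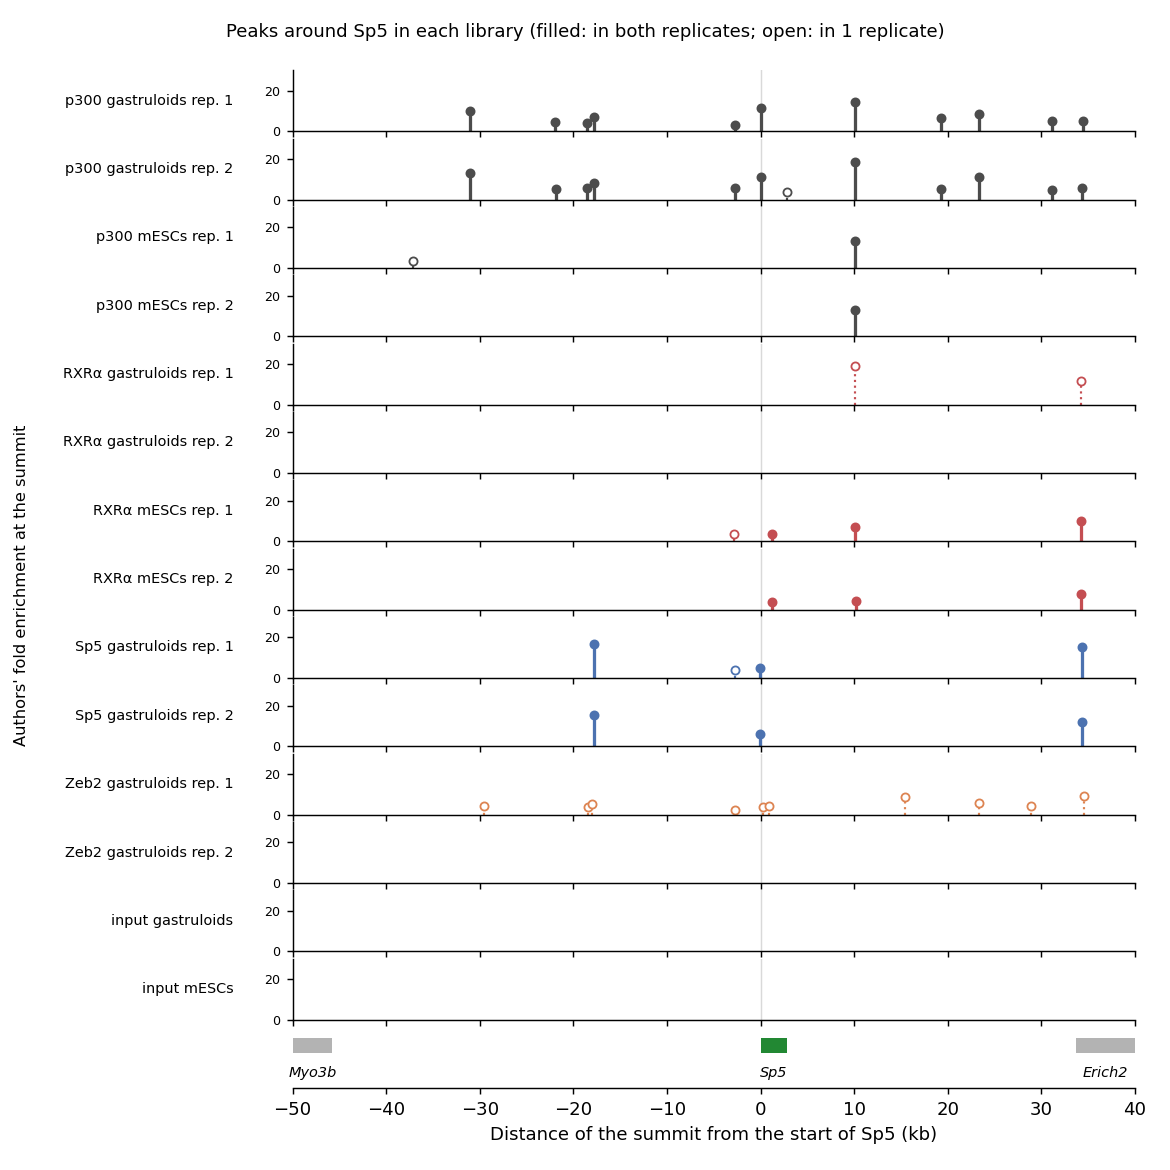
Peaks within 50 kb upstream and 40 kb downstream of the start of Sp5, 1 row per library. Height is the authors' fold enrichment at the summit, filled circles are peaks met in both replicates of a group, open circles with dotted stems are peaks of 1 replicate, and bars at the bottom are genes. The gastruloid p300 rows carry peaks on both sides of Sp5 where the mESC p300 rows have 1 peak in both replicates, at 10.1 kb, and 1 in replicate 1 alone, at −37.1 kb (fold 3.45), and all Zeb2 peaks are in replicate 1.

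Sp5 protein bound its own gene at 2 places in gastruloids. Both held p300 as well, so 2 of the 6 gastruloid p300 regions at Sp5 held Sp5, where 17.3% of all gastruloid p300 regions did. The other 4 held no region of Sp5, Zeb2 or RXRα, as was so of 74.4% of all. Peaks of these proteins in replicate 1 alone, given below, lay at some of the 4. At least 1 Sp5 region was given to 39.9% of genes and at least 2 to 6.59%.

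The upstream Sp5 region was the stronger of the pair. At 17.8 kb upstream of the start (chr2:70456834-70457375) the folds of Sp5 were 16.8 and 15.4 (16.1 ± 0.962, n = 2), with 69 and 85 fragments at the summit. It ranked 689 of 19714 peaks in the first library and 93 of 11932 in the second, that is in the top 3.49% and 0.779%. At the start itself (chr2:70474449-70475218) the folds were 4.82 and 6.24 (5.53 ± 1.00, n = 2), with 31 and 41 fragments, and the region stood 73.7% and 39.5% of the way down the lists. The ranges of the 2 places did not overlap: each library had the upstream site higher in fold and in fragments. For p300 the order was the other way round, with 242 and 182 fragments at the start and 49 and 41 at 17.8 kb. The local background was also higher at the start than at 17.8 kb, 5.63 and 5.73 fragments against 3.17 and 4.58 in the Sp5 libraries, and 20.2 and 15.6 against 6.07 and 4.15 in the p300 libraries.

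The Sp5 and p300 summits nearly coincided at the upstream site. The Sp5 summit lay 1 and 19 bp to the left of the p300 summit in replicates 1 and 2. At the start of Sp5 it lay 61 and 58 bp to the left of the p300 summit, 3 and 16 bp before the annotated start. Over all regions that held both proteins the median distance between the summits was 131 bp in replicate 1 and 105 bp in replicate 2. One more Sp5 peak, at 2.73 kb upstream over a p300 region, was met in replicate 1 only (fold 4.05, 25 fragments). Both Sp5 replicates come from 1 tagged line, in which the edited gene is Sp5 itself; whether the tag alters binding at this locus was not tested.

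RXRα had no region at Sp5 in gastruloids and 2 in mESCs. The count in mESCs was 0 with −log10 q of at least 5, and also with all RXRα lists at the length of the shortest, so the contrast between cell types was lost under either. At least 2 RXRα regions in mESCs were given to 24.1% of genes, and at least 1 in gastruloids to 8.73%. One mESC region lay inside the gene, 1.19 kb after the start, with folds of 3.36 and 3.88 (19 fragments in each library), and no gastruloid library had a peak there, which made it mESC-only like 63.5% of the mESC RXRα regions given to genes. The other lay at the shared p300 place 10.1 kb downstream. There the first gastruloid library had an RXRα peak of fold 18.98 with 73 fragments, among the top 2.55% of its list, and the second gastruloid library had none; the mESC libraries had 7.07 and 4.37 (22 and 13 fragments). The second gastruloid RXRα list was short, with 3111 peaks against 29867 in the first, and held 7.89% of the peaks of the first, so the absence of a region at this place in gastruloids rests on 1 library.

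Zeb2 had no region at Sp5, and this too rested on the shorter list. Replicate 1 had 6 Zeb2 peaks given to Sp5, with folds of 2.51 to 8.51 (median 3.99), and 4 of them lay at gastruloid p300 regions. They stood at 2.72, 17.9 and 18.5 kb upstream and at 0.219, 0.93 and 15.4 kb after the start. The one at 15.4 kb had the highest fold (29 fragments). Replicate 2, with 12222 peaks against 44310 in replicate 1, had none of the 6. Over the whole list, 22.96% of the peaks of replicate 1 were met in replicate 2.

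Some regions close to Sp5 were nearer to an end of another gene and are not counted above. Within 100 kb of Sp5 they came to 8 p300 regions in gastruloids, all gastruloid-only, and 1 in mESCs. Of the 8, 5 were nearest to Erich2, 2 to Gad1 and 1 to Myo3b. The Myo3b one, 31.0 kb upstream of Sp5, had folds of 10.1 and 12.8 (85 and 76 fragments). By fold, though not by fragments in replicate 2, it was above every counted gastruloid p300 region upstream of Sp5. Sp5 protein had 1 such region, 34.4 kb downstream of the start of Sp5 and 625 bp from an end of Erich2, with folds of 15.4 and 12.1. Within 100 kb of Sp8, 4 gastruloid and 2 mESC p300 regions were nearest to Abcb5. One of them, 71.7 kb after the start of Sp8, was shared. Its folds were 19.3 and 24.3 in gastruloids and 28.5 and 23.5 in mESCs. In each library that was above every p300 region given to Sp8. Which of these genes a region acts on was not measured.

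At Sp8, p300 had regions of its own in each cell type. Gastruloids had 6 p300 regions given to Sp8, of which 4 were gastruloid-only, and mESCs had 3, of which 1 was mESC-only; the remaining 2 were shared. At least 4 gastruloid-only regions were given to 9.28% of genes, at least 3 mESC p300 regions to 14.9%, and 43.8% of the mESC p300 regions given to a gene were mESC-only. The share of single-type regions that were gastruloid-only, 4 of 5, stood near the 71.1% of all genes. With p300 lists of equal length, Sp8 had 4 gastruloid p300 regions, 3 of them gastruloid-only, and 1 mESC-only region. No difference between the Sp5 and Sp8 counts was tested.

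Of the 4 gastruloid-only p300 regions of Sp8, 3 lay in or close to the gene and 1 lay 34.6 kb upstream. The one at the promoter window (chr12:118846993-118847538) had folds of 6.40 and 5.80 (98 and 70 fragments), with its summit 58 and 34 bp after the start at 118847233. The one with the highest fold of these 4 lay inside the gene near its 3′ end (chr12:118852068-118852601), with 7.64 and 9.24 (141 and 126 fragments). The region 10.1 kb after the start, beyond the end of the gene, had 4.23 and 4.85, and the upstream one had 5.48 and 6.29, with 18 and 16 fragments only. The mESC-only region, 23.04 kb upstream, was of similar depth, with folds of 4.85 and 5.72 (17 and 18 fragments) in mESCs.

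The shared p300 regions stood 9.61 and 79.7 kb upstream of Sp8. At 9.61 kb (chr12:118836369-118837107) the folds were 8.90 and 9.83 in gastruloids and 8.31 and 6.33 in mESCs. At 79.7 kb (chr12:118766423-118766768) they were 4.72 and 7.06 in gastruloids and 19.8 and 18.3 in mESCs. The 79.7 kb region was the one nearest to the 100 kb limit on regions at these genes.

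**Figure D2:**
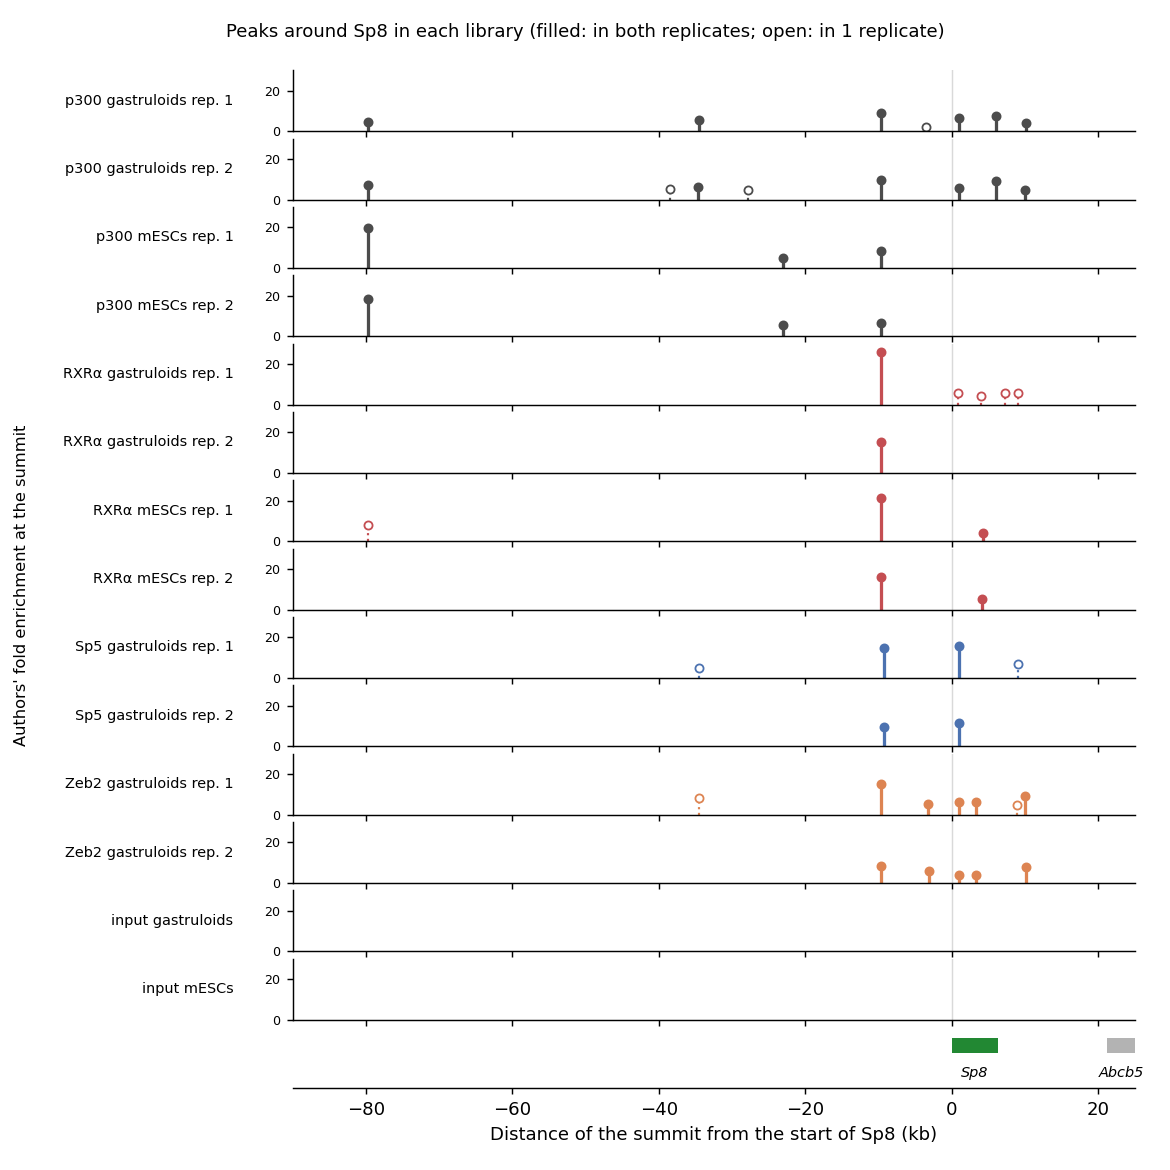
Peaks within 90 kb upstream and 25 kb downstream of the start of Sp8, drawn as for Sp5. The place 9.6 kb upstream carries filled peaks in all 12 immunoprecipitation libraries and in neither input, and the place 79.7 kb upstream is higher in the mESC p300 rows (19.8 and 18.3) than in the gastruloid rows (4.72 and 7.06).

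The place about 9.7 kb upstream of Sp8 was bound by all 4 proteins in gastruloids. Of all gastruloid p300 regions, 1.21% held Sp5, Zeb2 and RXRα together. With the gastruloid p300 and RXRα lists both at the length of the shortest, 3111 peaks, no p300 region at Sp8 held RXRα. RXRα had its strongest site of the 2 loci here, with folds of 25.9 and 15.4 in gastruloids (267 and 57 fragments) and 21.1 and 15.9 in mESCs (227 and 171 fragments). It ranked 201 of 29867 and 32 of 3111 peaks in the gastruloid lists, and 441 of 49661 and 508 of 28112 in the mESC lists. Sp5 had folds of 14.8 and 9.39 (118 and 79 fragments) and Zeb2 14.9 and 8.35 (103 and 25 fragments). It was the only RXRα region given to Sp8 in gastruloids; 3.8% of gastruloid p300 regions held RXRα, and 85.8% of gastruloid RXRα regions lay at a p300 region.

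Within that place the summits of the 4 proteins were not all together. The RXRα summit lay 88 and 58 bp to the left of the p300 summit, and the Zeb2 summit 72 and 6 bp to its left, so that RXRα and Zeb2 were 16 and 52 bp apart. The Sp5 summit lay to the right of all of them, 306 and 342 bp from p300, 378 and 348 bp from Zeb2 and 394 and 400 bp from RXRα, in the direction of Sp8. The order was the same in both replicates. Of all regions that held Sp5 and p300, 19.2% in replicate 1 and 15.99% in replicate 2 had summits over 300 bp apart, and of those that held Sp5 and RXRα 25.5% and 21.5% did, so this spacing was in the wider part of the range without being rare.

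The RefSeq start of Sp8 at 118847233, the start of Sp8 in this comparison, was bound by Sp5, Zeb2 and p300 in gastruloids. Distances in kb at Sp8 are throughout from the left end of the gene, 118846288, which lay in no region. Sp5 had folds of 15.5 and 11.3 (13.4 ± 2.96, n = 2) at chr12:118846775-118847552, with 89 and 78 fragments, ranked 985 and 503 in its lists, and its summit stood 11 bp before the start at 118847233 in replicate 1 and on it in replicate 2. Zeb2 had 6.18 and 4.18 (71 and 16 fragments), with its summit 22 and 14 bp before that start. The Sp5 and Zeb2 summits were 11 and 14 bp apart, and the Sp5 summit was 69 and 34 bp to the left of the p300 summit. A RefSeq start lay inside a Sp5 region at 33.6% of the genes with a start in the promoter table and inside a Zeb2 region at 21.6%. It lay inside regions of all 3 proteins at 14.1%, and inside a Sp5 and a p300 region at 30.3%, as it did at Sp5. In fold the Sp5 protein was higher at the start of Sp8 than at its own start in both libraries, 15.5 and 11.3 against 4.82 and 6.24.

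Sp5 protein had 2 regions at Sp8, as at its own gene, and both held p300. Of all Sp5 regions 84.7% lay at a gastruloid p300 region, so the 4 of 4 at these genes add little to that share. Replicate 1 had 2 further Sp5 peaks at Sp8, at 34.5 kb upstream (fold 4.94, 9 fragments) and 9.01 kb after the start (fold 7.03, 20 fragments).

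Zeb2 had 5 regions at Sp8, and 0.187% of genes (41) had as many or more. With −log10 q of at least 5 in both libraries 3 were left, without the one at the start and the one inside the gene, so that share of genes holds for the count of 5 alone. Besides the 9.7 kb place and the start, they stood 3.28 kb upstream, with folds of 5.50 and 5.72 (45 and 18 fragments), 3.28 kb after the start inside the gene, with 6.14 and 4.05 (62 and 14 fragments), and 10.04 kb after the start, with 9.02 and 7.74 (41 and 20 fragments). The last lay at a gastruloid p300 region. In all, 3 of the 5 Zeb2 regions were at gastruloid p300 regions, against 78.3% of all Zeb2 regions. The Zeb2 region 3.28 kb upstream also overlapped a p300 peak of gastruloid replicate 1 alone (fold 2.21, 26 fragments). In turn, 3 of the 6 p300 regions held Zeb2, against 15% of all. With 6 Zeb2 peaks at Sp5 in replicate 1 and none in replicate 2, the difference between the loci in Zeb2 regions rests on the second library; at Sp8 replicate 2 held 5 of the 7 places of replicate 1.

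**Figure D3:**
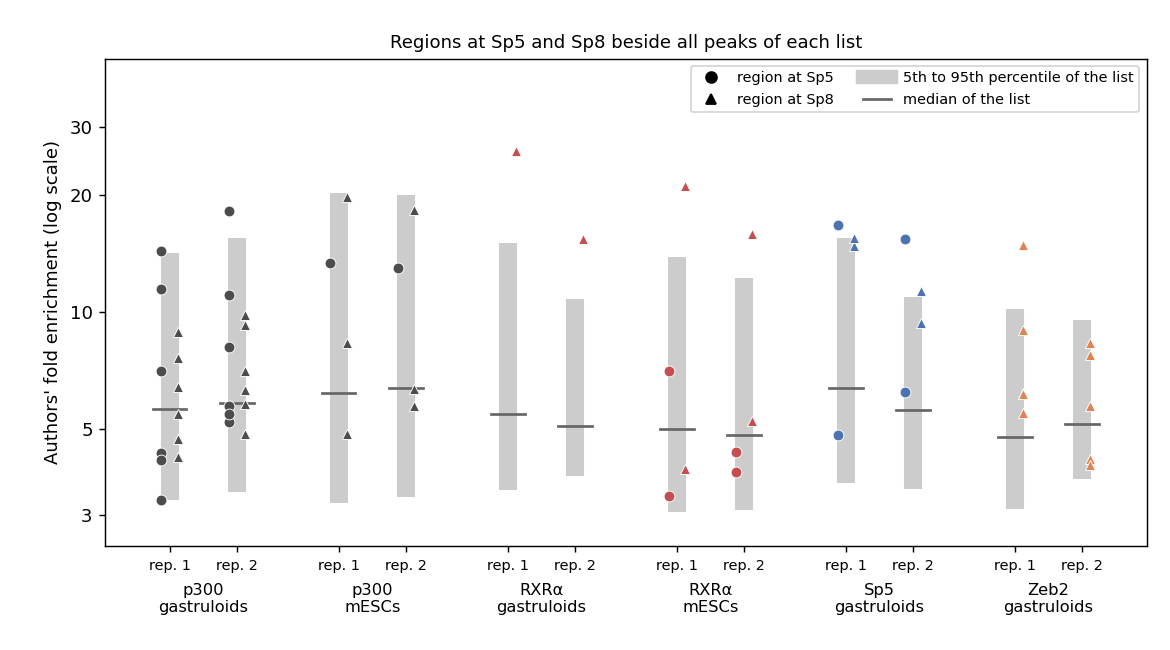
The authors' fold enrichment of the regions at Sp5 (circles) and Sp8 (triangles) in each library, on a log scale, over the 5th to 95th percentile of all peaks of that list (grey bars) and their median (dark line). The RXRα region 9.7 kb upstream of Sp8 lies above the grey bar in all 4 libraries, while most p300 regions lie inside it; folds of different lists are not on one scale.

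RXRα also had 1 region inside Sp8 in mESCs, 4.18 kb after the start, with folds of 3.95 and 5.23 (21 and 29 fragments). In gastruloids the first RXRα library had 4 single peaks near Sp8 with folds of 4.41 to 5.92. One of them was at 3.99 kb and another lay over the RefSeq start at 118847233 (31 fragments). The second library had none of them.

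The height of p300 at the 3 shared regions was compared between cell types. Fragments at the summit were divided by the lowest local background of the library, which stands in for depth. On that scale the region 10.1 kb downstream of the start of Sp5 reached 55.2 and 69.4 in gastruloids and 28.4 and 26.3 in mESCs (62.3 ± 9.996 and 27.4 ± 1.496, mean ± SD, n = 2 each), 2.28-fold higher in gastruloids. The region 9.61 kb upstream of Sp8 reached 43.0 and 59.4 in gastruloids and 13.3 and 8.62 in mESCs (51.2 ± 11.6 and 10.9 ± 3.30), 4.67-fold higher in gastruloids. The region 79.7 kb upstream of Sp8 went the other way, with 7.16 and 12.3 in gastruloids and 68.7 and 61.2 in mESCs (9.75 ± 3.66 and 64.9 ± 5.25), 0.150 times the mESC level.

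The cell types did not overlap at any of these 3 regions. Over the 13495 shared p300 regions, both gastruloid libraries stood above both mESC libraries at 33.4% and below them at 47.5%, and the median log2 difference was −0.26 (−0.096 where each library was scaled to its median shared region). The 3 regions were at the 83.6th, 95.8th and 4.87th percentile of that difference. On the scale of the authors' fold they were at the 75.8th, 77.4th and 2.73rd percentile. With 2 libraries against 2, the smallest p an exact permutation test can give is 0.333, so none was used. By the authors' fold, which divides by the local background, the groups did not overlap either (over all shared regions 26.1% above and 51.5% below), and the log2 differences (gastruloids over mESCs) were 0.31, 0.36 and −1.70 in place of 1.19, 2.22 and −2.74. For RXRα at the 9.7 kb place the groups overlapped, with 241.7 and 51.2 in gastruloids and 108.9 and 77.7 in mESCs.

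**Figure D4:**
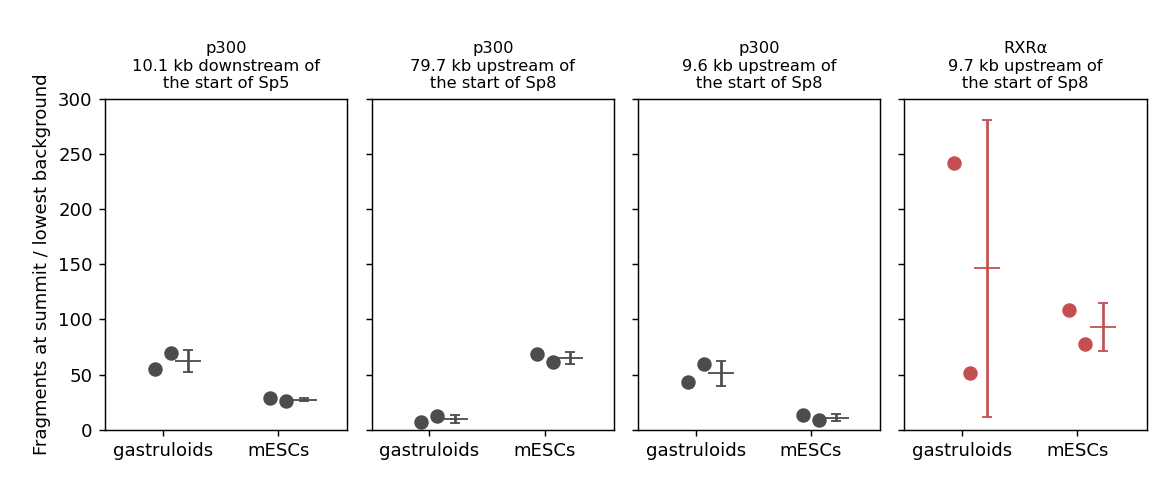
Fragments at the summit over the lowest local background of the library at the 4 regions found in both cell types, with gastruloids left of mESCs. Points are libraries, and the dash with a bar is the mean with its SD (n = 2). p300 at Sp5 and at 9.6 kb upstream of Sp8 is higher in gastruloids, p300 at 79.7 kb upstream of Sp8 is lower in gastruloids, and the RXRα libraries overlap.

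The counts of regions over the 6 groups placed other genes close to these. Likeness was the Euclidean distance between log2(number of regions + 1) over the 6 groups. Cotl1 had the same 6 counts as Sp5, and Pacsin2 (distance 0.193) and Wnt5a (0.222), a Wnt ligand, followed. Kcnh2 and Lbx1 were tied at 0.471. For Sp8 the nearest were Adk (0.491), T2 (0.738), Sgms1 (0.849), Rgma (0.881) and Brip1 (0.905), none as close as the first 3 were to Sp5.

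Sp and Klf genes had regions more often than all genes, and not of Sp5 alone. Of the 26 genes of the family, these 2 included, 22 (84.6%) had at least 1 Sp5 region, against 39.9% of all genes, with a median of 1 region against 0 over all genes. At least 1 p300 region was given to 96.2% of the family in gastruloids and 92.3% in mESCs, against 68.3% and 49.3% of all genes, and at least 1 mESC RXRα region to 92.3%, against 49.4%. Klf10 and Sp1 had 3 Sp5 regions each, and Klf13 and Sp7 had 2 Sp5 regions each. The p300 regions of the family did not lean further to gastruloids than those of all genes: 64.8% of its single-type regions were gastruloid-only, against 71.1%. Klf10 had 7 p300 regions in gastruloids and 9 in mESCs, and Sp1 had 5 in gastruloids and 4 in mESCs. Sp4, the left neighbour of Sp8, had 4 gastruloid-only p300 regions and 0 of the mESC-only kind.

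Wnt pathway and tail bud genes, of which Sp5 and Sp8 are 2 of 27, had 122 gastruloid-only and 33 mESC-only p300 regions, or 78.7% gastruloid-only. Of the 25 with single-type regions, 22 had more gastruloid-only than mESC-only ones, 0 had fewer and 3 had as many; over all genes 69.8% had more. At least 1 Sp5 region was given to 20 of the 27 (74.1%), against 39.9% of all genes. This was not so of Sp5 alone. At least 1 p300 region was given to 100% of the list in gastruloids and 92.6% in mESCs, against 68.3% and 49.3% of all genes. For mESC RXRα regions the share was 85.2%, against 49.4%. The feedback inhibitor Nkd1 had 4 Sp5 regions, 7 gastruloid-only p300 regions and 0 mESC-only ones. Tcf7l1, a Wnt-regulated repressor of the TCF family, had 4 Sp5 regions, with 10 gastruloid-only and 6 mESC-only p300 regions, and Lef1, the TCF/LEF factor, had 3, with 9 and 0. Znrf3, a ubiquitin ligase that removes Wnt receptors, had 2 Sp5 regions and 7 Zeb2 regions. At least 1 Zeb2 region was given to 16 of the 26 Sp and Klf genes and to 18 of the 27 Wnt genes, against 33% of all genes.

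The lists held 3111 to 75346 peaks per immunoprecipitation after removal of peaks at input peaks, and the median peak had 12 to 32 fragments at its summit, so a peak of that size carries a counting error of about its square root. The inputs had 514 peaks in gastruloids and 111 in mESCs. The cell type labels were checked on marker genes. The 6 gastruloid markers (T, Tbx6, Cdx2, Hoxb1, Meox1 and Cyp26a1) had 27 gastruloid-only and 1 mESC-only p300 regions. The 6 mESC markers (Nanog, Esrrb, Pou5f1, Klf4, Tfcp2l1 and Zfp42) had 11 gastruloid-only and 17 mESC-only ones. Klf4 was the one of 5 that had more of the gastruloid kind. The share that was gastruloid-only was 96.4% at the gastruloid markers and 39.3% at the mESC markers, against 71.1% over all genes. Klf4 is also in the Klf family above, and T, Tbx6 and Cdx2 are also among the Wnt and tail bud genes.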

How the data were processed

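Each library had 1 deposited list of ChIP-seq peaks. The submitters' processing notes name MACS2 2.2.7, BWA 2.2.1, fastp 0.20.1 and the build GRCm38.p6 (mm10); their roles, and whether an input served as control, are not given in the sources used here. The deposited score is a whole number made from the −log10 q. The deposited fold (a ratio) is signal at the summit over local background. The authors also gave a −log10 p-value and −log10 q-value, with a q threshold of 0.05, and the summit offset.

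The 21 main chromosomes were kept, without any peak that touched an input peak. Regions and genes were joined as stated above, with Python 3.11.15, numpy 2.4.6, pandas 2.3.3 and scipy 1.17.1. Gastruloid-only regions overlapped no peak of either mESC library, mESC-only was the reverse, and shared regions overlapped a region of the other cell type. Fragments and background were solved from the fold and −log10 p of a Poisson tail, and came out whole within 0.01 for 100% of peaks. The code was tested on simulated data. No test was made, as the result is counts of regions. Depth in reads is unknown, and counting errors cover counting alone.

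The members and lists were chosen with earlier results of these data known. Named genes are Sp5, Sp8, their neighbours, the 5 most alike, and and 4 other genes of each list with the most Sp5 regions, ties going to those with more gastruloid p300 regions; Sp4 in its family was added after seeing its values. The heights at shared regions, and their other scales and pairing, were chosen after seeing the data. Promoters are from RefSeq (GRCm38.p6). Exon and intron positions were not used here.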

Additional observations from a re-analysis of the deposited data

How the results depend on the processing

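Of 232 recounts of regions, 212 stayed within 1.5 times the reported count. Part of the 212 could not have changed. Keeping peaks at input peaks had no effect, since neither input had a peak within 100 kb of either gene. Some recounts left out a library of the other cell type that the count does not use. The 212 are therefore no measure of how stable the counts are. Counting every region within 100 kb whatever gene was nearer gave 14 gastruloid p300 regions at Sp5 (13 gastruloid-only), 1 mESC-only p300, 7 mESC RXRα and 2 Zeb2 regions there, and 10 gastruloid p300 regions at Sp8. With −log10 q of at least 5, 0 mESC RXRα regions remained at Sp5 and 3 Zeb2 regions at Sp8. Within 20 kb, 0 mESC-only p300 regions were left at Sp8. With lists of equal length, 0 mESC RXRα regions were at Sp5 and 1 at Sp8, 1 p300 region at Sp5 held Sp5, and 0 at Sp8 held RXRα. Leaving out 1 replicate gave 0 to 1 gastruloid RXRα regions at Sp5 and 1 to 5 at Sp8, 0 to 6 Zeb2 regions at Sp5 and 2 to 4 Sp5 regions at Sp8. p300 regions that held RXRα were then 0 to 1 at Sp5 and 1 to 2 at Sp8, and those at Sp5 that held Zeb2 0 to 4. Each upper value came without replicate 2 of the RXRα gastruloid, Zeb2 or Sp5 libraries. By the deposited fold the p300 log2 height differences were 0.31 at Sp5, and 0.36 (9.61 kb) and −1.70 (79.7 kb) at Sp8. Scaled to the median shared region, the RXRα difference at Sp8 reversed to −0.10 from 0.65; the cause was not tested. With libraries of the same number paired (a replicate block, added after seeing the data), the p300 differences were 1.18, 2.24 and −2.79, and that of RXRα 0.27. For the counts of regions no paired analysis was possible because they carry no test. With 12 to 32 fragments at the median peak, absence from a list is not absence of binding.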
